A study of Mus musculus with 18 samples.

Results

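Insulin keeps the FOXO transcription factors out of the nucleus. Its receptor acts through phosphatidylinositol 3-kinase (PI3K) and the kinase AKT, which phosphorylates FOXO proteins so that they are held in the cytosol. When insulin is low, FOXO proteins enter the nucleus and switch on genes that slow growth, hold back mTORC1 signaling and promote autophagy and protein breakdown. In fat cells, insulin is the main hormone that stops lipolysis, and FOXO1 is the best studied FOXO factor of the adipocyte.

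The genes described here are 10 genes known as FOXO-induced or as genes that rise when insulin is lacking: Sesn1, Sesn3, Pik3ip1, Gabarapl1, Bnip3, Fbxo32, Cited2, Klf15, Foxo3 and Ccng2. They were picked by name and not by a threshold on the signals, though with earlier results of these data known. All 10 were measured among the 19938 genes of the array. Where a gene had several probe sets, the brightest by its mean signal was used. The name FOXO-induced describes what is known of the genes from other work, and the signals in visceral fat did not follow it for every gene. In STZ, SD vs Con, SD, 3 of the 10 genes rose, 1 fell and 6 did not pass the test. Of all genes, 5.82% were called higher and 4.52% lower in that comparison.

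The study asked how bezafibrate (BEZ), a lipid-lowering drug that activates the peroxisome proliferator-activated receptors, changes gene expression in insulin-deficient mice. Streptozotocin (STZ) enters the beta cells of the pancreas through a glucose transporter and destroys them, so that the mice make little insulin. RNA of visceral white adipose tissue (WAT) was measured in 18 mice, each on its own Mouse Gene 1.0 ST array from Affymetrix. The deposited values are log2 signals, so differences are log2 fold changes.

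All mice were wildtype C57BL/6N males of 5 to 6 months. The 5 STZ, BEZ mice were given 65 mg/kg STZ into the abdomen on 5 days in a row at an age of 10 to 16 weeks, and 2 weeks later they went on food with BEZ for 8 weeks. The labels give the BEZ content of the food as 0.25% or 0.5% by weight and do not say which mouse had which. The 6 STZ, SD mice had the same STZ injections and stayed on standard diet (SD). The 7 Con, SD mice had citrate buffer injections and standard diet. The methods of the paper give another STZ dose and call the controls untreated, so these details are taken from the labels. None of the 18 mice used here was given BEZ without STZ, and the p-values measure the spread between individual mice.

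The sequence before the start site is shown for the 4 genes that passed the test in STZ, SD vs Con, SD, since these are the genes a reader would search first for FOXO elements. Each stretch is the 150 bases upstream of a start site on the plus strand of GRCm38.p6, written 5′ to 3′ from the RefSeq promoter table, and capitals mark the letters AAACAA or their reverse complement TTGTTT.

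Cited2, chr10:17723078-17723227: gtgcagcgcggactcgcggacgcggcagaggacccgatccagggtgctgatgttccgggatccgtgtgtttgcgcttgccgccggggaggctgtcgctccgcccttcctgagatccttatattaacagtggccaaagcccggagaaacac
Gabarapl1, chr6:129533042-129533191: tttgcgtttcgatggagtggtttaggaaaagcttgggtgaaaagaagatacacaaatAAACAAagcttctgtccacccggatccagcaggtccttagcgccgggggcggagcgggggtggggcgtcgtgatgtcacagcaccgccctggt
Sesn1, second start, chr10:41887289-41887438: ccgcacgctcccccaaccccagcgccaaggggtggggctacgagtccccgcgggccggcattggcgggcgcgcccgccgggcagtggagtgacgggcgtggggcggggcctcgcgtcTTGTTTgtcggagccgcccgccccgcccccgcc
Sesn3, chr9:14276151-14276300: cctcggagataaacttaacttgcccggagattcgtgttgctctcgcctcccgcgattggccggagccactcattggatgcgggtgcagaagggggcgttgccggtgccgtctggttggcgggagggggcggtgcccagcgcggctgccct

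The longer FOXO words were found in the promoter windows of 2 other starts, which are shown as 29 bases around the word in capitals. The Sesn1 site lies just after the first start of the gene, and the Ccng2 site lies just before its start.

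Sesn1, first start, chr10:41810585-41810613: gaaccttctacTGTTTACcagccttttgg
Ccng2, chr5:93267546-93267574: cgtcgcagactCAAAACAaaaacaagggg

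Promoters of 9 of the 10 genes were in the table, with 10 windows of 300 bases because Sesn1 has 2 starts. Fbxo32 had no entry. The search used 3 words, on both strands of each window. GTAAACA, the element bound best by FOXO proteins in vitro, was in the window of 1 of 9 genes and in 3.65% of all 32851 promoters. CAAAACA, the core of the insulin response sequence, was in 1 of 9 genes and in 6.28% of all promoters. AAACAA, which overlaps the CAAAACA word in Ccng2, was in 3 of 9 genes (Ccng2, Gabarapl1 and Sesn1) and in 20.7% of all promoters. A match of letters is a description of the window and no measure of binding.

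The arrays differed in tissue make-up, and this was measured before the genes were compared. White adipocyte markers (13 genes, with Retn, Fabp4 and Cd36 the brightest) had a mean log2 signal of 12.32 to 12.41 in STZ, BEZ, of 10.22 to 12.31 in STZ, SD and of 11.54 to 12.28 in Con, SD, so the tissue carried the markers of fat. The pancreas list of 18 genes had 12.78 in STZ, SD replicate 6 and 8.14 to 10.50 in STZ, BEZ replicates 1 to 4, against 5.74 to 6.08 on all other arrays. The list of 17 epididymis and testis genes had 11.47 in STZ, SD replicate 3 and 11.10 and 11.59 in Con, SD replicates 3 and 5, while the other arrays had 5.75 to 8.85. The skeletal muscle list of 15 genes had 6.47 to 7.38 in STZ, BEZ, 6.39 to 6.66 in STZ, SD and 6.68 to 8.31 in Con, SD, and 7 of its genes were called lower in STZ, SD vs Con, SD. The liver list of 9 genes had 6.63 to 9.85 in STZ, BEZ, 6.06 to 6.85 in STZ, SD and 6.69 to 8.80 in Con, SD, with all 9 genes lower in mean in STZ, SD than in Con, SD and 1 called. Of the other marker lists, 3 of 8 fibroblast genes were called lower and 2 of 10 T and NK cell genes higher in STZ, SD vs Con, SD. The macrophage, endothelium and mesothelium lists had 0 genes called there. The part of these cells and of muscle and liver RNA in the results below was not tested. STZ, SD replicates 3 and 6 and Con, SD replicates 3 and 5 are the arrays with most RNA of another organ in the standard diet groups, and the counts of called genes were repeated without these 4 arrays. In the repeated counts 6 of 10 mesothelium genes were called higher in STZ, SD vs Con, SD (median 0.83), so the make-up still differed. In whole tissue, fewer cells of a type and less RNA per cell cannot be told apart. The values below are signals of all cells in the sample.

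In STZ, SD vs Con, SD, Cited2, Sesn1 and Gabarapl1 rose and Sesn3 fell. The share of all 19938 genes called in this comparison was 10.3% (limma, adjusted p under 0.10 by Benjamini-Hochberg), of which 5.82% were higher and 4.52% were lower. None of the 10 genes separated the groups without overlap, and 1.62% of all genes did so. The difference was positive for 8 of the 10 genes and for 43.7% of all genes, and the median log2 difference was 0.35 for the 10 genes and -0.03 for all genes. Without the 4 arrays named above, a choice made after the values were seen, 6 of the 10 genes passed the test, with Bnip3 (0.59, adjusted p = 0.0128) and Pik3ip1 (0.58, adjusted p = 0.0294) beside the same 4 genes. Of all 19938 genes, 3826 passed there, against 2063 in the main fit. In that fit 4 of the 10 genes lay above Con, SD without overlap and 1 lay below, while 11.9% of all genes separated the groups. With the replicate number as a block 2 genes were called, with Cited2 and Sesn3 lost (adjusted p = 0.119 and 0.158).

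**Figure D1:**
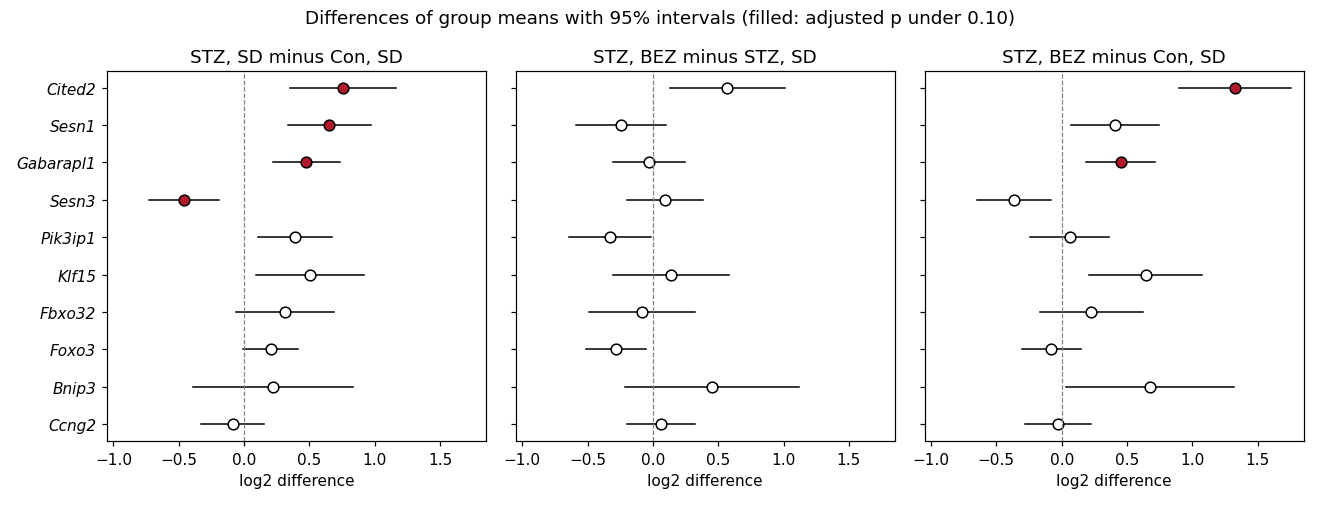
Difference of group means (log2, x axis) for each of the 10 genes, with 95% intervals, in the 3 comparisons. Filled points passed an adjusted p of 0.10. In STZ, SD vs Con, SD the 3 filled points above 0 are Cited2, Sesn1 and Gabarapl1 and the filled point below 0 is Sesn3, no point is filled in STZ, BEZ vs STZ, SD, and Cited2 and Gabarapl1 are filled in STZ, BEZ vs Con, SD.

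None of the 10 genes passed the test in STZ, BEZ vs STZ, SD. In that comparison 0 of 10 genes were called by limma and 0 by SAM, 3 had an unadjusted p under 0.05, while 0.707% of all genes were called by limma and 10.2% had an unadjusted p under 0.05. The STZ, SD arrays enter this comparison and the previous one, so the differences are not independent. The 3 genes were Cited2 (0.57, unadjusted p = 0.0144), Foxo3 (-0.28, unadjusted p = 0.0196) and Pik3ip1 (-0.33, unadjusted p = 0.0395), and their adjusted p-values were 0.331, 0.362 and 0.456. In STZ, BEZ vs Con, SD, Cited2 and Gabarapl1 rose, against 5.95% of all genes called and 4.57% called higher. Cited2, Gabarapl1 and Sesn1 were above all Con, SD mice in every STZ, BEZ mouse, while 6.80% of all genes separated these groups and 5.17% were higher without overlap. Without the 4 arrays named above, 0 and 3 of the 10 genes and 5 and 2103 of all genes were called in these 2 comparisons. The added gene was Bnip3 (0.53 in STZ, BEZ vs Con, SD, adjusted p = 0.0256). The pancreas list was also higher in STZ, BEZ replicates 1 to 4 than in Con, SD. With the organ and adipocyte lists as covariates, Cited2 had 1.11 in STZ, BEZ vs Con, SD (adjusted p = 0.0163) and Gabarapl1 had 0.39 (adjusted p = 0.143), so the call of Gabarapl1 was lost.

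**Figure D2:**
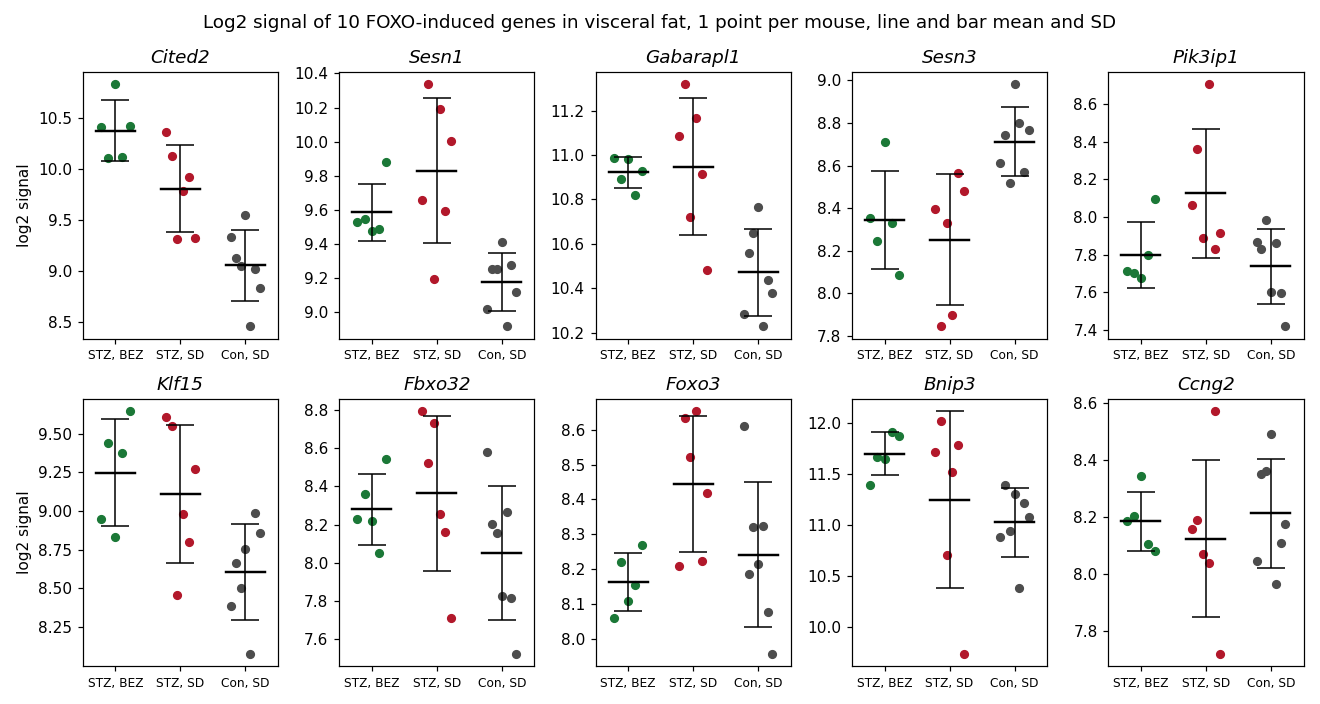
Log2 signal (y axis) of each gene in each mouse, with STZ, BEZ on the left, STZ, SD in the middle and Con, SD on the right. Points are mice, and the line and bar are the mean and SD. The 5 STZ, BEZ points of Cited2 lie between 10.11 and 10.84, above the highest Con, SD point of 9.56, and the 6 STZ, SD points of Sesn1 spread from 9.20 to 10.34.

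Sestrins and PIK3IP1 act as brakes on the nutrient and insulin pathways. Sesn1 encodes sestrin 1, which binds the GATOR2 complex and so limits mTORC1 activity. The gene lies at chr10:41810574-41908436 in GRCm38.p6, the RefSeq build used for all positions here. Sesn1 had 9.53, 9.55, 9.48, 9.49 and 9.88 in the STZ, BEZ mice. The lowest, median and highest values were 9.20, 9.83 and 10.34 in STZ, SD and 8.92, 9.25 and 9.41 in Con, SD. STZ, SD replicates 2 and 4 were the highest of all mice, with 10.34 and 10.19, whereas STZ, SD replicate 3 lay within the Con, SD range. Sesn1 was 1.57-fold higher in STZ, SD than in Con, SD (log2 difference 0.65 ± 0.15 SE, limma adjusted p = 0.0207). The difference in STZ, BEZ vs STZ, SD was -0.24 with a 95% interval of -0.59 to 0.10 (adjusted p = 0.677), and in STZ, BEZ vs Con, SD it was 0.41 (0.07 to 0.74, adjusted p = 0.180) and the groups did not overlap. Without STZ, SD replicate 3, which enters only the shared spread there, that adjusted p was 0.0871.

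Sesn3 encodes sestrin 3, the sestrin most closely tied to FOXO factors, and it was the only one of the 10 genes that fell in STZ, SD vs Con, SD. It lies at chr9:14276301-14326134. Sesn3 had 8.36, 8.25, 8.71, 8.33 and 8.09 in the STZ, BEZ mice. Across the other mice, the lowest, median and highest values were 7.85, 8.36 and 8.57 in STZ, SD and 8.52, 8.74 and 8.98 in Con, SD. STZ, SD replicates 2 and 4, which had the highest Sesn1, had the lowest Sesn3 at 7.85 and 7.90. Sesn3 was 1.38-fold lower in STZ, SD than in Con, SD (log2 difference -0.46 ± 0.13 SE, adjusted p = 0.0442). Without STZ, SD replicate 2 the difference was -0.38 (adjusted p = 0.109) and without replicate 4 it was -0.39 (adjusted p = 0.110), so the call was lost without either mouse. The difference in STZ, BEZ vs STZ, SD was 0.09 (95% interval -0.20 to 0.39), and in STZ, BEZ vs Con, SD it was -0.37 (-0.65 to -0.08, adjusted p = 0.151). Without STZ, BEZ replicate 3 the last difference was -0.46 (adjusted p = 0.0851), and with the organ and adipocyte lists as covariates it was -0.65 (adjusted p = 0.0543).

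Pik3ip1 encodes a membrane protein that binds the PI3K catalytic subunit and lowers its activity. It lies at chr11:3319241-3342971. Pik3ip1 had 7.71, 7.70, 7.67, 7.80 and 8.10 in the STZ, BEZ mice. The lowest, median and highest values were 7.83, 7.99 and 8.71 in STZ, SD and 7.42, 7.83 and 7.98 in Con, SD. STZ, SD replicates 2 and 4 were again the highest mice, at 8.36 and 8.71, and the groups overlapped. The log2 difference in STZ, SD vs Con, SD was 0.39 ± 0.14 SE (adjusted p = 0.1001, just outside the threshold), in STZ, BEZ vs STZ, SD -0.33 (95% interval -0.64 to -0.02) and in STZ, BEZ vs Con, SD 0.06 (-0.24 to 0.36). The first difference passed the threshold when any of Con, SD replicates 1 and 3, STZ, SD replicates 3, 5 and 6 or STZ, BEZ replicate 5 was left out (0.39 to 0.45, adjusted p = 0.0638 to 0.0990).

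In the main fit, other genes of the pathway around the sestrins were called at about the share of all genes. The GATOR and mTORC1 list held 18 measured genes, with Sesn2 but without Sesn1 and Sesn3, and 1 rose and 1 fell in STZ, SD vs Con, SD, where 10.3% of all genes were called. In that comparison 8 of the 18 had an unadjusted p under 0.05, against 20.3% of all genes. Ddit4, an inhibitor of mTORC1 that is induced by stress, rose (0.65, adjusted p = 0.0912), and Sesn2, the third sestrin, fell (-0.48, adjusted p = 0.0433). With the 4 arrays left out 3 rose and 3 fell, and Ddit4 was not among them (0.54, adjusted p = 0.228). Of all 19938 genes, 3826 were called in that fit. The median difference of the list was -0.04, beside -0.03 for all genes. None of its genes was called in the comparisons with STZ, BEZ by limma, where 2 of them had an unadjusted p under 0.05 in STZ, BEZ vs STZ, SD and 6 in STZ, BEZ vs Con, SD (18.3% of all genes). In the last comparison 2 rose and 2 fell without the 4 arrays.

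Gabarapl1, Bnip3 and Fbxo32 act in autophagy and protein breakdown. Gabarapl1 encodes a protein of the ATG8 family that is attached to the autophagosome membrane. It lies at chr6:129533192-129542331. Gabarapl1 had 10.99, 10.89, 10.98, 10.82 and 10.93 in the STZ, BEZ mice. For the others the lowest, median and highest values were 10.48, 11.00 and 11.32 in STZ, SD and 10.23, 10.44 and 10.77 in Con, SD. The STZ, BEZ mice were tightly grouped (SD 0.07) and all above Con, SD, whereas STZ, SD overlapped Con, SD through its lowest mice, replicates 3 and 6. Gabarapl1 was 1.39-fold higher in STZ, SD than in Con, SD (log2 difference 0.48 ± 0.12 SE, adjusted p = 0.0294). It was higher in STZ, BEZ than in Con, SD (0.45, 95% interval 0.19 to 0.71, adjusted p = 0.0619), and the difference in STZ, BEZ vs STZ, SD was -0.03 (-0.30 to 0.25). The call in STZ, BEZ vs Con, SD was lost when any of Con, SD replicates 1, 5 and 7 or STZ, BEZ replicates 1, 2, 3 and 5 was left out, with differences of 0.41 to 0.46 and adjusted p-values of 0.106 to 0.148.

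Bnip3 encodes a receptor for the removal of mitochondria by autophagy, which is also induced by hypoxia. It lies at chr7:138890836-138909506. Bnip3 had 11.39, 11.66, 11.65, 11.91 and 11.87 in the STZ, BEZ mice. The lowest, median and highest values were 9.73, 11.62 and 12.03 in STZ, SD and 10.38, 11.07 and 11.39 in Con, SD. STZ, SD replicates 1, 2, 4 and 5 were above all Con, SD mice, and replicates 3 and 6 were low, at 10.70 and 9.73. The difference in STZ, SD vs Con, SD was 0.22 ± 0.29 SE (adjusted p = 0.724), and without replicate 6 it was 0.53 (adjusted p = 0.119). The STZ, BEZ vs STZ, SD difference was 0.45 (95% interval -0.21 to 1.11) and in STZ, BEZ vs Con, SD 0.67 (0.03 to 1.31, adjusted p = 0.249, and 0.0582 without STZ, SD replicate 6). A second probe set of Bnip3 gave 0.34, 0.40 and 0.74 in the 3 comparisons, none past the threshold.

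The lowest Bnip3 signals came from arrays with a low adipocyte marker signal, though not every such array was low. STZ, SD replicate 6 had the lowest mean of the adipocyte list, 10.22, and the lowest Bnip3. It also had the highest pancreas list of all arrays, 12.78. The next lowest Bnip3 signals were 10.38 in Con, SD replicate 5 and 10.70 in STZ, SD replicate 3, where the adipocyte list had 11.54 and 11.33. Both arrays also had a high epididymis and testis list. STZ, SD replicate 4, with an adipocyte list of 11.48, had a Bnip3 of 11.52, above every Con, SD mouse, and Con, SD replicate 1, with 11.54, had a Bnip3 of 10.88. With the organ and adipocyte lists as covariates, the Bnip3 difference in STZ, SD vs Con, SD was 0.46 (adjusted p = 0.0457).

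**Figure D3:**
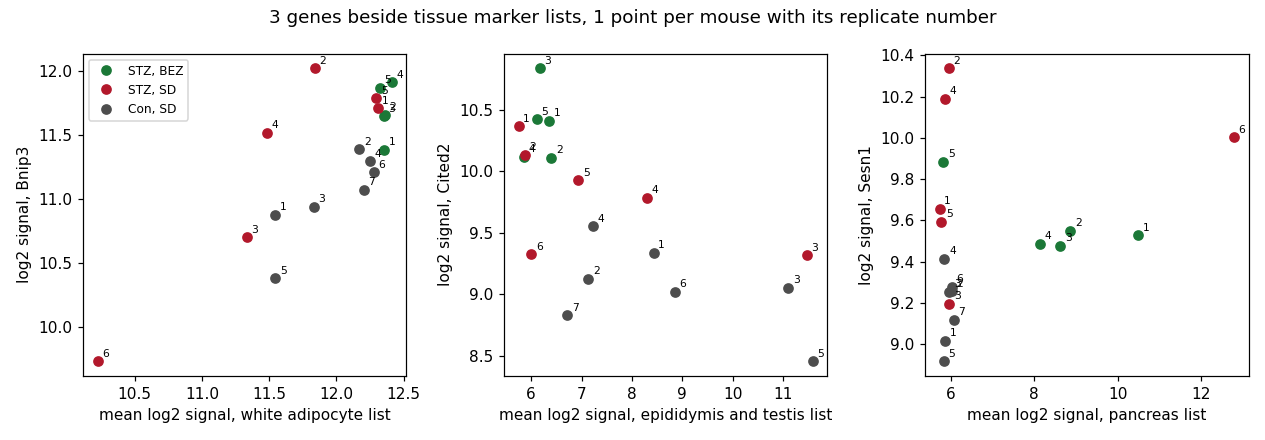
Log2 signal of Bnip3, Cited2 and Sesn1 (y axes) against the mean log2 signal of the white adipocyte, epididymis and testis, and pancreas lists (x axes), 1 point per mouse with its replicate number. Bnip3 is lowest in STZ, SD replicate 6, where the adipocyte list is 10.22, and STZ, BEZ replicate 1 has a pancreas list of 10.50 with a Sesn1 of 9.53.

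Fbxo32 encodes atrogin-1, a ubiquitin ligase subunit of wasting muscle. It lies at chr15:58175879-58214892. Fbxo32 had 8.23, 8.36, 8.22, 8.05 and 8.54 in the STZ, BEZ mice. Lowest, median and highest values were 7.71, 8.39 and 8.79 in STZ, SD and 7.52, 8.15 and 8.58 in Con, SD. The ranges of the groups overlapped. Con, SD replicate 1, the highest Con, SD mouse, had the highest skeletal muscle list of all mice, 8.31. STZ, SD replicates 1 and 3, with the highest Fbxo32 of all mice at 8.79 and 8.73, had muscle lists of 6.63 and 6.39. The part of muscle RNA in the Fbxo32 signal was not tested. The difference in STZ, SD vs Con, SD was 0.31 ± 0.18 SE (adjusted p = 0.360), in STZ, BEZ vs STZ, SD -0.08 (95% interval -0.49 to 0.33) and in STZ, BEZ vs Con, SD 0.23 (-0.17 to 0.62). With the organ and adipocyte lists as covariates the last difference was 0.70 and passed the threshold (adjusted p = 0.0819), and the STZ, BEZ vs STZ, SD difference turned to 0.28 (adjusted p = 0.899).

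In STZ, SD vs Con, SD, 9 of 26 autophagy list genes had an unadjusted p under 0.05, against 20.3% of all genes. Of the list, 0 genes were called higher and 4 lower, beside 5.82% and 4.52% of all genes. Those that fell were Map1lc3a (-0.73), a close relative of Gabarapl1, and Ulk2 (-0.47), Atg12 (-0.39) and Atg101 (-0.24), which act at the start and in the elongation of the autophagosome. When the 4 arrays were left out 5 genes rose and 4 fell, and Ulk2 and Atg101 were no longer called (adjusted p = 0.150 and 0.137). With the covariates 3 rose and 2 fell, and of the 4 named genes Map1lc3a was still called. The median of the list was -0.05, beside -0.03 for all genes. Of 26 genes none was called in STZ, BEZ vs STZ, SD, with 5 at an unadjusted p under 0.05, and 1, Bnip3l, rose in STZ, BEZ vs Con, SD (0.32, adjusted p = 0.0676). The list of ubiquitin genes of muscle wasting had 13 genes, of which 2 rose and 0 fell in STZ, SD vs Con, SD: the F-box gene Fbxo31 (1.14) and the ubiquitin ligase gene Traf6 (0.28). Of the same list 4 rose and 0 fell without the 4 arrays, and with the covariates Traf6 lost its call (adjusted p = 0.220). Psmd11, a proteasome subunit gene, rose in STZ, BEZ vs STZ, SD (0.30, adjusted p = 0.0777), and Psmd11, Traf6 and the ubiquitin ligase gene Smurf1 (0.64) rose in STZ, BEZ vs Con, SD. The call of Psmd11 against STZ, SD was lost without the 4 arrays (0.25, adjusted p = 0.248) and with the covariates (0.13, adjusted p = 0.872), and all 13 adipocyte markers were also higher in mean in STZ, BEZ than in STZ, SD (median 0.71, 1 called). Against Con, SD, Psmd11 and Traf6 were not called with the covariates (adjusted p = 0.226 and 0.272).

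Cited2, Klf15 and Foxo3 encode regulators of transcription. Cited2 encodes a cofactor that binds the CBP and p300 coactivators and competes with HIF1A for them. It lies at chr10:17723228-17725674. Cited2 had 10.41, 10.11, 10.84, 10.12 and 10.42 in the STZ, BEZ mice. The lowest, median and highest values were 9.32, 9.86 and 10.37 in STZ, SD and 8.46, 9.06 and 9.56 in Con, SD. Cited2 was above 10 in every STZ, BEZ mouse and in STZ, SD replicates 1 and 2, at 10.37 and 10.13, and STZ, SD replicates 3 and 6, at 9.32 and 9.33, lay within the Con, SD range. The log2 difference in STZ, SD vs Con, SD was 0.75 ± 0.19 SE (1.69-fold, adjusted p = 0.0320) and in STZ, BEZ vs Con, SD 1.33 ± 0.20 SE (adjusted p = 0.00421). The STZ, BEZ vs STZ, SD difference was 0.57 (95% interval 0.13 to 1.01, adjusted p = 0.331). The difference of 1.33 was the largest in size of the 10 genes over the 3 comparisons.

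Klf15 encodes a transcription factor of fasting that turns on breakdown of branched-chain amino acids. It lies at chr6:90461043-90491803. Klf15 had 8.95, 9.44, 8.83, 9.37 and 9.64 in the STZ, BEZ mice. On the standard diet, the lowest, median and highest values were 8.46, 9.13 and 9.61 in STZ, SD and 8.08, 8.67 and 8.99 in Con, SD. STZ, SD replicates 1, 2 and 6 were above all Con, SD mice, and replicate 3 was low. The difference in STZ, SD vs Con, SD was 0.50 ± 0.19 SE (adjusted p = 0.141), in STZ, BEZ vs STZ, SD 0.14 (95% interval -0.31 to 0.58) and in STZ, BEZ vs Con, SD 0.64 (0.21 to 1.07, adjusted p = 0.1001). Klf15 passed the threshold in STZ, SD vs Con, SD without STZ, SD replicate 3 (0.63, adjusted p = 0.0412). It passed in STZ, BEZ vs Con, SD when Con, SD replicate 6, STZ, SD replicate 1, 2, 3 or 6 or STZ, BEZ replicate 3 was left out (0.64 to 0.74, adjusted p = 0.0592 to 0.0943).

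Klf15 governs amino acid breakdown and glucose supply in muscle and liver. Of 12 measured genes tied to it, 3 rose and 1 fell in STZ, SD vs Con, SD, where 10.3% of all genes were called. Of these, Bcat2 (0.92), Dbt (0.75) and Bckdha (0.48), enzymes of branched-chain amino acid breakdown, rose, and Gpt (-1.10), alanine aminotransferase, fell. Of the 12 genes, 5 rose and 0 fell in STZ, BEZ vs Con, SD, among them Bcat2 (1.15), Dbt (0.94) and Bckdha (0.84). In that comparison 5.95% of all genes were called. The median difference of the list was 0.31 in STZ, SD vs Con, SD and 0.69 in STZ, BEZ vs Con, SD, beside -0.03 and -0.006 for all genes. Leaving out the 4 arrays, 5 rose and 1 fell in STZ, SD vs Con, SD and again 5 rose and 0 fell in STZ, BEZ vs Con, SD. Of all genes, 3826 and 2103 were called there. With the organ and adipocyte lists as covariates 6 rose and 2 fell in STZ, SD vs Con, SD. Under the covariates 4 rose and 1 fell in STZ, BEZ vs Con, SD. Of all genes, 2690 and 2846 were called in these 2 comparisons with the covariates. None was called in STZ, BEZ vs STZ, SD, where 8 had an unadjusted p under 0.05, against 10.2% of all genes.

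Foxo3 encodes one of the FOXO factors, and it can induce its own gene. It lies at chr10:42181845-42276695. Foxo3 had 8.06, 8.22, 8.11, 8.16 and 8.27 in the STZ, BEZ mice. The lowest, median and highest values were 8.21, 8.47 and 8.65 in STZ, SD and 7.96, 8.22 and 8.61 in Con, SD. All groups overlapped, and STZ, SD replicates 2 and 4 were the highest. The difference in STZ, SD vs Con, SD was 0.20 ± 0.10 SE (adjusted p = 0.274), in STZ, BEZ vs STZ, SD -0.28 (95% interval -0.51 to -0.05, adjusted p = 0.362) and in STZ, BEZ vs Con, SD -0.08 (-0.30 to 0.14). With the organ and adipocyte lists as covariates the last 2 differences turned to 0.15 and 0.27 (adjusted p = 0.892 and 0.174). Without Con, SD replicate 1 the first difference was 0.26 and passed the threshold (adjusted p = 0.0960).

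Ccng2 encodes cyclin G2, which holds back the cell cycle. It lies at chr5:93267573-93276231. Ccng2 had 8.19, 8.21, 8.35, 8.11 and 8.08 in the STZ, BEZ mice. In the other groups the lowest, median and highest values were 7.72, 8.12 and 8.57 in STZ, SD and 7.97, 8.18 and 8.49 in Con, SD. All groups overlapped, and none of the 3 differences exceeded 0.09 in size. The difference was -0.09 ± 0.11 SE (adjusted p = 0.717) in STZ, SD vs Con, SD, 0.06 (95% interval -0.20 to 0.32) in STZ, BEZ vs STZ, SD and -0.03 (-0.28 to 0.22) in STZ, BEZ vs Con, SD.

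**Figure D4:**
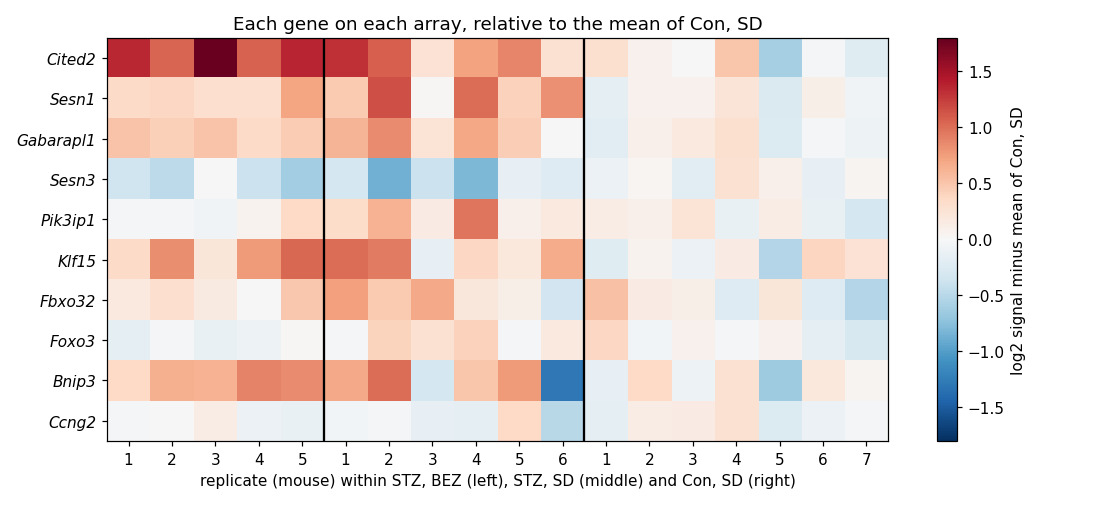
Log2 signal of each gene on each array minus the mean of Con, SD (color scale), with STZ, BEZ on the left, STZ, SD in the middle and Con, SD on the right. STZ, SD replicates 2 and 4 are high in Sesn1 and Pik3ip1 and low in Sesn3, and STZ, SD replicate 6 is low in Bnip3.

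The SD of the signal was smaller in STZ, BEZ than in STZ, SD for all 10 genes, a difference in spread that was not tested. The number of the 10 genes above the Con, SD range was 7, 7, 1, 6, 5 and 2 in STZ, SD replicates 1 to 6 and 3, 5, 4, 5 and 6 in STZ, BEZ replicates 1 to 5. Replicates 3 and 6 of STZ, SD, with 1 and 2 genes above the range, are the STZ, SD arrays with the highest epididymis and testis list and the highest pancreas list. The mean log2 signal of the 10 genes was 9.18 to 9.38 in STZ, BEZ, 8.91 to 9.49 in STZ, SD and 8.73 to 9.09 in Con, SD.

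Other genes gave a profile close to each of these genes over the 18 arrays, as a description of shared variation that includes the groups and the tissue make-up. Bnip3 was closest to Osbpl11 (Pearson r = 0.967), Klf15 to Thrb (0.951), Cited2 to Ube2h (0.934), Sesn1 to Nfkbiz (0.934), Gabarapl1 to Mmp11 (0.931) and Sesn3 to Cd164 (0.930). Fbxo32 was closest to Zfp317 (0.935), Pik3ip1 to Tmpo (0.911), Ccng2 to Ntrk2 (0.902) and Foxo3 to Rps10 (0.893).

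The FOXO genes themselves and the steps above them were also measured. Of the 4 FOXO genes on the array, none was called in any comparison by limma: Foxo1 had 0.06, Foxo4 0.22 (adjusted p = 0.140), Foxo3 0.20 and Foxo6 -0.10 in STZ, SD vs Con, SD, where 1 had an unadjusted p under 0.05. Foxo6 fell when the 4 arrays were left out (-0.29, adjusted p = 0.0746). Of 21 genes from the insulin receptor to FOXO and its regulators, 4 rose and 0 fell in STZ, SD vs Con, SD. Insr, the insulin receptor (0.60), Sirt1, a deacetylase of FOXO (0.53), Rictor, an mTORC2 subunit (0.48), and Usp7, a deubiquitinase (0.19), were the genes that rose. Insr and Sirt1 did not overlap between the groups. Of all genes, 5.82% were called higher and 4.52% lower in that comparison, and 1.62% did not overlap. Akt2, the AKT isoform most tied to insulin action in fat, rose in STZ, BEZ vs STZ, SD (0.73, adjusted p = 0.0972). In STZ, BEZ vs Con, SD 4 genes of the list rose, among them Insr (0.64) and Sirt1 (0.48). Of all genes, 0.707% and 5.95% were called in these 2 comparisons. The call of Akt2 was lost without the 4 arrays (0.54, adjusted p = 0.226) and with the organ and adipocyte covariates (0.17, adjusted p = 0.900), under which 0 of all genes were called in STZ, BEZ vs STZ, SD. All 13 adipocyte markers were higher in mean in STZ, BEZ than in STZ, SD (median 0.71). The covariates therefore cannot tell tissue make-up from an effect of BEZ. The fit without the 4 arrays kept STZ, BEZ replicates 1 to 4, which had high pancreas markers. In that fit, 8 of the 21 genes rose and 0 fell in STZ, SD vs Con, SD, and 6 rose and 0 fell in STZ, BEZ vs Con, SD. Of all 19938 genes, 3826 and 2103 were called there. The median of the list was 0.17 in STZ, SD vs Con, SD.

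Among 30 other FOXO targets, 8 rose and 4 fell in STZ, SD vs Con, SD, beside 5.82% and 4.52% of all genes. The list shares Insr, Irs2 and Rictor with the previous list, and Ulk2, Atg12 and others with the autophagy list. Ppargc1a, the coactivator PGC-1alpha, rose by 1.27, Pdk4, the kinase that closes pyruvate dehydrogenase, by 0.95 and Txnip, an inhibitor of glucose uptake, by 0.80 on the log2 scale. The genes that fell, named after their values were seen, were Bcl6 (-0.73), Ulk2 (-0.47), Atg12 (-0.39) and Trib1 (-0.25). These counts were 10 and 4 without the 4 arrays, with Ulk2 and Trib1 no longer called (adjusted p = 0.150 and 0.1002). With the covariates 8 rose and 1 fell, and the call of Pdk4 was lost (0.69, adjusted p = 0.110). The median was -0.01, beside -0.03 for all genes. None was called by limma in STZ, BEZ vs STZ, SD, with 10 at an unadjusted p under 0.05. Between STZ, BEZ and Con, SD 6 rose and 1 fell, and those that rose included Pdk4 (2.10), Ppargc1a (1.58) and Txnip (0.90). In that comparison 8 rose and 2 fell without the 4 arrays.

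Relatives of the 10 genes were measured on the same arrays. Of 16 relatives, 0 rose and 2 fell in STZ, SD vs Con, SD, Sesn2 (-0.48) and Ccng1 (-0.39, adjusted p = 0.0384), while Bnip3l and Klf9 rose in STZ, BEZ vs Con, SD (0.32 and 0.70). Without the 4 arrays 2 of the relatives rose and 3 fell in STZ, SD vs Con, SD, with Bnip3l (0.35, adjusted p = 0.00777) and Klf9 (0.69, adjusted p = 0.0103) the genes that rose. Gabarap and Gabarapl2, the nearest relatives of Gabarapl1, had -0.05 and -0.07 in STZ, SD vs Con, SD, whereas Gabarapl1 had 0.48. Bnip3l, the relative of Bnip3 in mitochondrial autophagy, had 0.23 (adjusted p = 0.136).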

How the data were processed

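RNA of visceral fat from 18 mice was hybridized to 18 arrays. According to the labels, the authors summarized the arrays by RMA in Affymetrix Expression Console 1.2, which corrects background, equalizes the distributions and gives log2 values, and these deposited log2 signals were used as they are. No value column was left out (0), and the precision is limited by the number of arrays. The name table covers 23410 of the 35556 probe sets, 21789 with a single symbol, 1621 with several and 12146 without a name here. The probe set with the highest mean was kept per gene, giving 19938 genes, of which 19856 were found in RefSeq and 82 kept the symbol of the platform. Bnip3 has a second probe set and the other 9 genes have a single one. No filter on low signals was used. Array medians were 6.76 to 6.88 and correlations between arrays were 0.902 to 0.991, and no arrays were duplicates.

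Groups came from the labels, and the comparisons used limma 3.58.1 (R 4.3.3) with one fit over all arrays with 15 residual and 2.44 prior degrees of freedom. The p-values were adjusted by Benjamini-Hochberg over all genes, and a gene was called when its adjusted p was below 0.10, since the study set its false discovery rate at 10%. Intervals are 95% and not adjusted. The fit was tested on simulated data.

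The 10 genes and all lists were chosen with earlier results of these data known, so the results are descriptions of these genes. The lists cover FOXO genes, insulin signaling, other FOXO targets, relatives, autophagy, ubiquitin genes, GATOR and mTORC1, Klf15-linked, hypoxia, glucocorticoid, p53 and cell cycle genes, and cell type markers. From each list up to 4 genes by smallest p in STZ, SD vs Con, SD and up to 2 by smallest p in STZ, BEZ vs STZ, SD were named, and all FOXO genes and relatives could be named.

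Alternatives were an adjusted p under 0.05, SAM with 100 permutations (seed 1), all probe sets, probe set means, brighter genes, quantile normalization, array medians set to 0, a variance trend, array weights, 2-group fits, a replicate block, organ and adipocyte lists as covariates, and each array left out. A fit without 4 arrays, and the list counts under that fit and under the covariates, were added after the values were seen. Liver and muscle arrays were not analysed here.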

Additional observations from a re-analysis of the deposited data

Results flagged for a closer look

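Sesn1 in STZ, BEZ replicate 5 stood apart from its group, with a log2 signal of 9.88 while the other STZ, BEZ mice had 9.48 to 9.55. It was the 1 outlying sample among 30 gene and group combinations examined by Dixon's test at the 95% level, which by chance marks about 5% of groups. The same mouse had the highest liver list of all arrays (9.85, against 6.63 to 7.06 in the other STZ, BEZ mice). Its pancreas list was the lowest of the STZ, BEZ mice (5.82, against 8.14 to 10.50). The part of either in the Sesn1 signal was not tested. Without this mouse the difference of Sesn1 in STZ, BEZ vs Con, SD was 0.33 (adjusted p = 0.420 by limma).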

How the results depend on the processing

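Cited2, Sesn1 and Gabarapl1 kept their call in STZ, SD vs Con, SD in all 18 fits that left out 1 array. Leaving out each array in turn, the number of the 10 genes called ranged from 3 to 6 in STZ, SD vs Con, SD, was 0 throughout in STZ, BEZ vs STZ, SD and ranged from 1 to 4 in STZ, BEZ vs Con, SD. In the last comparison it was 1 without Con, SD replicates 1, 5 or 7 or STZ, BEZ replicates 1, 2 or 5, and 4 without STZ, SD replicates 3 or 6. Other settings gave 1 at an adjusted p under 0.05, 6 with SAM, 6 with array weights, 6 with only the 2 groups and 4 with covariates in STZ, BEZ vs Con, SD. Of all genes, these settings called 602, 3837, 3804, 2820 and 2846 in that order, against 1187 in the main fit. In each of the last 4 settings, 1 of the called 10 genes was lower and the rest were higher.

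Replicate numbers were not used as pairs in the main fit. Same-numbered mice had correlations of their deviations from -0.36 to 0.70, which do not settle whether the numbers pair the mice. The 0.70 was for replicate 3 of STZ, SD and Con, SD, which both had a high epididymis and testis list (11.47 and 11.10). With the replicate block, 2 of the 10 genes were called in STZ, SD vs Con, SD and 1 in STZ, BEZ vs Con, SD, and of all genes 680 were called in STZ, SD vs Con, SD, 2 in STZ, BEZ vs STZ, SD and 599 in STZ, BEZ vs Con, SD. Pik3ip1 had -0.033 in STZ, BEZ vs Con, SD under the block.

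The number of all genes called was 2063 in STZ, SD vs Con, SD. It was 1089 at an adjusted p under 0.05, 4264 probe sets over all probe sets, 3374 with array weights, 1022 with 2 groups, 3826 without the 4 arrays, and 1128 to 2897 with 1 array left out (1128 without STZ, SD replicate 2, 1193 without replicate 4, 1187 and 1291 without Con, SD replicates 7 and 6). In STZ, BEZ vs STZ, SD it was 141, and 17, 274 for brighter genes, 76 with array medians at 0, 378 with weights, 14 with 2 groups, 0 with covariates, 5 without the 4 arrays and 11 to 705 with 1 array left out. In STZ, BEZ vs Con, SD it was 1187, and 602, 3837 with SAM, 1908 over all probe sets, 3804 with weights, 2820 with 2 groups, 2846 with covariates, 2103 without the 4 arrays and 418 to 2096 with 1 array left out.

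The sign turned only for differences that did not pass the adjusted threshold. With covariates Ccng2 had 0.062 in STZ, SD vs Con, SD. In STZ, BEZ vs STZ, SD, covariates gave Ccng2 -0.27, Sesn3 -0.22, Fbxo32 0.28, Pik3ip1 0.13 and Foxo3 0.15, and in STZ, BEZ vs Con, SD Foxo3 0.27. Array weights gave Ccng2 -0.036 in STZ, BEZ vs STZ, SD. Without the 4 arrays Ccng2 had 0.005 in STZ, SD vs Con, SD and -0.054 in STZ, BEZ vs STZ, SD, where Bnip3 had -0.064. With 1 array left out, STZ, BEZ vs STZ, SD ranged from -0.12 to 0.048 for Gabarapl1, -0.215 to 0.002 for Fbxo32 and -0.021 to 0.15 for Ccng2, and STZ, BEZ vs Con, SD from -0.07 to 0.017 for Ccng2 and -0.013 to 0.102 for Pik3ip1. The cause of these changes was not tested.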

Other observations

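The hypoxia list, which bears on Bnip3 and on Cited2, was split. Of 18 genes 3 rose and 2 fell in STZ, SD vs Con, SD by limma. The histone demethylase gene Kdm3a (0.55, adjusted p = 0.0145), the stress gene Ndrg1 (0.44, adjusted p = 0.0149) and Ddit4 rose, whereas the glycolysis genes Ldha (-0.77, adjusted p = 0.0451) and Pfkfb3 (-1.02, adjusted p = 0.0610) fell. Between STZ, BEZ and STZ, SD, Ldha and Pfkfb3 differed by 0.80 and 1.15 (adjusted p = 0.198 each), and Pgk1, another glycolysis gene, had 0.49 (adjusted p = 0.164). Without STZ, SD replicates 3 and 6 and Con, SD replicates 3 and 5, the 4 arrays with most RNA of another organ in the standard diet groups, 3 rose and 2 fell, with Ddit4 lost (adjusted p = 0.228). The median of the list was 0.03, beside -0.03 for all genes.

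Glucocorticoid targets, of which Klf15 is one, were read from a list of 16 genes. In STZ, SD vs Con, SD the difference was positive for 13 of them, against 43.7% of all genes. Of the 16 genes 1 was called, beside 10.3% of all genes. Errfi1, an inhibitor of growth factor receptors, rose in STZ, SD vs Con, SD (0.61, adjusted p = 0.0853), and Cebpd (0.62, adjusted p = 0.111), Klf9 (0.50) and Sgk1 (0.48) were not called. Without the 4 arrays 6 rose and 0 fell, among them Cebpd (0.83, adjusted p = 0.0306), while 3826 of all 19938 genes were called. The median was 0.26, and Klf9 rose in STZ, BEZ vs Con, SD (0.70, adjusted p = 0.0805).

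Targets of p53, which also induces sestrins, gave 1 gene higher and 3 lower of 14 in STZ, SD vs Con, SD. Trp53inp1, a stress-induced autophagy gene, rose (1.02, adjusted p = 0.0401), and Phlda3 (-1.60, adjusted p = 0.00981), Ccng1 and Sesn2 fell. Without the 4 arrays 2 rose and 4 fell, and with organ and adipocyte lists as covariates Trp53inp1 was not called (0.65, adjusted p = 0.157). None of the list was called in the comparisons with STZ, BEZ by limma, where 1 gene had an unadjusted p under 0.05 against STZ, SD and 4 genes against Con, SD. Cell division genes, beside which Ccng2 is read, fell in 7 of 17 cases and rose in 0, among them Prc1 (-0.88), Ccna2 (-0.97) and Aurkb (-0.77), with a list median of -0.59, and 5 of 17 fell in STZ, BEZ vs Con, SD. In these comparisons 12 and 7 of 17 fell without the 4 arrays.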
